A study of Danio rerio with 24 samples.

Results

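The Notch pathway genes described here were the rows of both deposited gene tables whose names begin as Notch receptors, Jagged and Delta ligands, Fringe enzymes, Mindbomb, Deltex and Numb proteins, RBPJ and Mastermind cofactors or members of the her, hes and hey family. The rule matched 53 of 25281 genes and used no measured value. They comprised 4 receptors, 9 ligands, 3 Fringe glycosyltransferases, 7 ubiquitin ligases and endocytic adaptors, 5 genes of the nuclear complex and 25 genes of the her, hes and hey family.

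In Notch signaling, a Delta or Jagged ligand on one cell binds a Notch receptor on its neighbor, the receptor is cut, and its freed intracellular domain enters the nucleus. There it joins the DNA-binding protein RBPJ and a Mastermind coactivator to switch on genes of the her, hes and hey family, which encode basic helix-loop-helix repressors. Fringe enzymes add sugars to the receptor and thereby alter which ligands it answers to, Mindbomb ligases drive the ligand endocytosis that activates the receptor, and Numb proteins counter the receptor inside the receiving cell. In the zebrafish retina the pathway is best known for holding progenitors and Müller glia back from neuronal differentiation, with the her4 genes as commonly used readouts.

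RNA was sequenced from eGFP+ cells sorted from pooled eyes of *rpe65a*:nfsB-eGFP larvae, in which the *rpe65a* promoter drives a nitroreductase fused to eGFP in the retinal pigment epithelium (RPE). Metronidazole (MTZ), which nitroreductase makes toxic, ablated RPE in MTZ+ larvae, while MTZ- larvae kept an intact RPE. Both kinds of larvae received rapamycin, an mTOR inhibitor, or its vehicle DMSO, and were collected at 2 days post-injury (2dpi, 7dpf) or 4 days post-injury (4dpi, 9dpf), which gave 8 groups of 3 libraries. All larvae carried the transgene over a cross to AB fish and had been treated with PTU, which blocks melanin synthesis, and since ablation spares part of the RPE, the sorted cells of MTZ+ larvae can hold surviving as well as newly formed eGFP+ cells.

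Total counts per library ran from 20607731 to 37189527, and a count of 3 in a library, used as the detection floor, equaled a normalized level (CPM, scaled to library size) of 0.0742 to 0.135. The 9 RPE markers were abundant throughout, with a summed level from 16050 to 118700 CPM across the 24 libraries, but lower after ablation. With DMSO the sum ranged from 69070 to 87370 CPM in intact and from 16050 to 31600 CPM in ablated libraries at 2dpi, where all 9 were downregulated DEGs, and from 69490 to 79890 CPM and from 25140 to 46130 CPM at 4dpi, where 4 of 9 were. With rapamycin 2 of 9 were downregulated DEGs at 2dpi and 1 of 9 at 4dpi. These are the libraries in which *jag1a*, *rfng*, *rbpjb* and *adam10a* were downregulated, at 2dpi also *dla* and *dtx4a*, and the part of lower RPE markers in those results was not tested. In both 4dpi MTZ+ groups, the letters in the raw names of replicate 2 stand the other way round than in replicates 1 and 3, so counts resting on these libraries are also given without them. For *glula*, a glial gene chosen for this comparison after its values were seen, the labelled groups did not overlap. It was 9530, 9621 and 6861 CPM in MTZ+ DMSO-treated and 1857, 353 and 1638 CPM in MTZ+ rapamycin-treated libraries. The RPE marker sums of the same groups did overlap, at 46130, 25140 and 27870 CPM and 80080, 18660 and 45290 CPM. Whether these labels were exchanged was not tested. The raw names of the 2dpi and 4dpi libraries carry different dates, so that larval age and this date cannot be told apart. In sorted bulk RNA, fewer cells of a type and less RNA per cell cannot be told apart either.

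Compared per length of transcript, as length-scaled transcript levels (TPM) averaged over the 24 libraries, 36 of the 53 genes reached 1 TPM and 14 reached 10 TPM. The family of nuclear effectors held the highest levels, led by *her9* at 61.0 TPM, *hes6* at 46.9 TPM and *her6* at 41.8 TPM, related to mammalian HES4, HES6 and HES1. Among receptors *notch2* led with 16.3 TPM, against 2.06 TPM for *notch1a*, 1.82 TPM for *notch3* and 0.383 TPM for *notch1b*. The most abundant ligands were *jag1b* at 5.54 TPM and *jag1a* at 5.11 TPM, and the most abundant Fringe was *lfng* at 34.5 TPM. At the other end, *her3* had no count in any library, and *her1*, *her5*, *heyl* and *rbpjl* had at most 3 counts in each. Of the 36 genes at 1 TPM or above, 13 had their highest group mean in MTZ+ DMSO-treated RPE at 4dpi, and 17 had their lowest in MTZ- DMSO-treated RPE of the same time point. The corresponding shares of all genes were not computed.

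**Figure D1:**
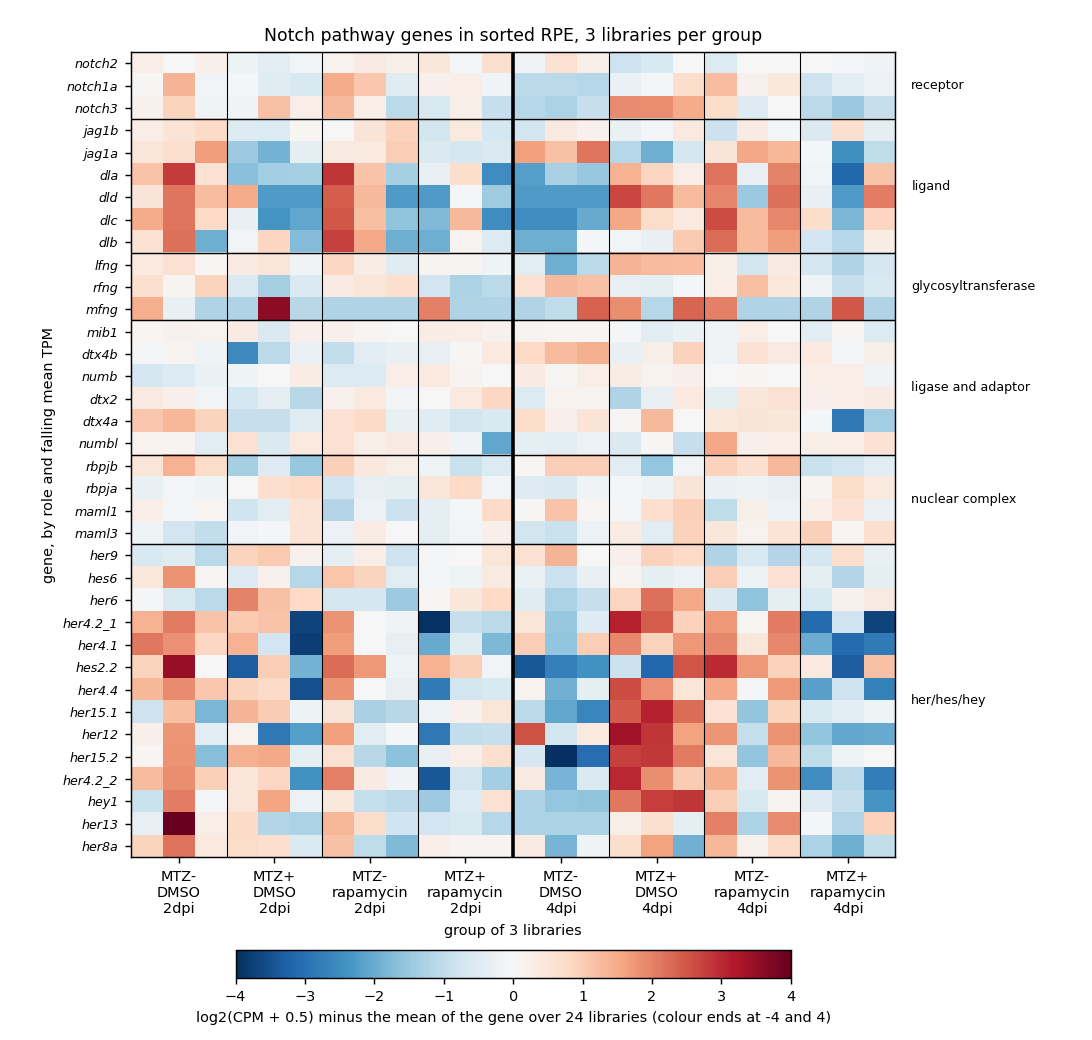
Levels of the 36 Notch pathway genes with a mean of at least 1 TPM in each of the 24 libraries (columns, 3 per group), as log2(CPM + 0.5) minus the mean of the gene over all libraries. Genes (rows) are sorted by role and mean TPM. MTZ+ DMSO-treated RPE at 4dpi is the group with the most rows at their highest mean (13), and MTZ- DMSO-treated RPE at 4dpi the one with the most at their lowest (17). The corresponding shares of all genes were not computed.

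Of the 53 genes, 23 were differentially expressed (DEGs) in at least 1 of 12 comparisons, for which edgeR's quasi-likelihood test over all genes had to give an adjusted p below 0.05 and a log2 fold change beyond 1 in either direction, and the higher of both groups had to average 1 TPM or more. The share of all genes called in at least 1 comparison was not computed, and single comparisons called up to 23.5% of all tested genes. Many comparisons share groups, so calls of 1 gene in several of them are not independent. A filter on low counts left 46 of the 53 genes tested at 2dpi, 43 at 4dpi and 48 across both time points. Those not tested at 4dpi were *her1*, *her3*, *her5*, *her7*, *her8.2*, *her11*, *hes2.1*, *heyl*, *jag2a* and *rbpjl*, all with low counts. At 2dpi *hes2.1*, *her7* and *her8.2* passed the filter as well.

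At 2dpi, ablation in DMSO-treated larvae was accompanied by higher *her6* and *her9* and lower *jag1a*, *dla*, *rfng*, *dtx4a* and *rbpjb*. These were 7 DEGs among the 46 tested, 2 upregulated and 5 downregulated, while 21.2% of all tested genes were called in that comparison, 11.3% upward and 9.9% downward. The median log2 fold change was -0.987 over the Notch pathway genes and 0.0416 over all genes, with 34 of 46 lower after ablation. Under rapamycin 2 of 46 were called, *her6* upregulated and *rfng* downregulated, against 14.4% of all genes, 8.68% upward and 5.73% downward, and both were also called with DMSO in libraries not shared with this comparison. The share of all genes called in both comparisons was not computed. Without MTZ- rapamycin-treated replicate 2, only *rfng* was called under rapamycin.

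At 4dpi the ablation comparison with DMSO held 16 DEGs among 43 tested genes, or 37.2%, while 23.5% of all tested genes were called. Upregulated were 13, namely the receptors *notch3* and *notch1a*, the ligands *dlc* and *dld*, the Fringe gene *lfng* and the effectors *her6*, *her13*, *her15.1*, *her15.2*, *her4.2_1*, *her4.2_2*, *her4.4* and *hey1*, against 14.3% of all genes upregulated. Downregulated were *jag1a*, *rfng* and *rbpjb*, against 9.14% of all genes. The median log2 fold change was 1.55 over the Notch pathway genes and 0.27 over all genes. The count was 10 without MTZ- DMSO-treated replicate 2 and 17 without replicate 2 of both ablated groups. Near-identical her4 and her15 copies are counted singly in these counts, and with all libraries the sum of each was called as well.

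Ablation under rapamycin at 4dpi was accompanied by lower levels of the called genes throughout. Called were 12 of 43, all downregulated, while 6.94% of all tested genes were downregulated DEGs and 15.6% were DEGs in either direction. They were *notch1a*, *notch3*, *jag1a*, *rfng*, *rbpjb*, *hes6*, *her12* and 5 her4 genes. These her4 genes are near-identical copies counted singly, and with all libraries their sum was called as well. Of the 8 genes called both with DMSO and with rapamycin, which are 50.0% and 66.7% of the 2 lists, *jag1a*, *rbpjb* and *rfng* were lower after ablation in both, and *notch1a*, *notch3*, *her4.2_1*, *her4.2_2* and *her4.4* were higher with DMSO and lower with rapamycin. No library is shared between these 2 comparisons. The shares of all genes called in both, in the same or in opposite directions, were not computed. The count under rapamycin was 5 without MTZ- rapamycin-treated replicate 3, 6 without MTZ+ rapamycin-treated replicate 2 and 3 without MTZ+ rapamycin-treated replicate 3, and it was 6 without replicate 2 of both ablated groups.

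**Figure D2:**
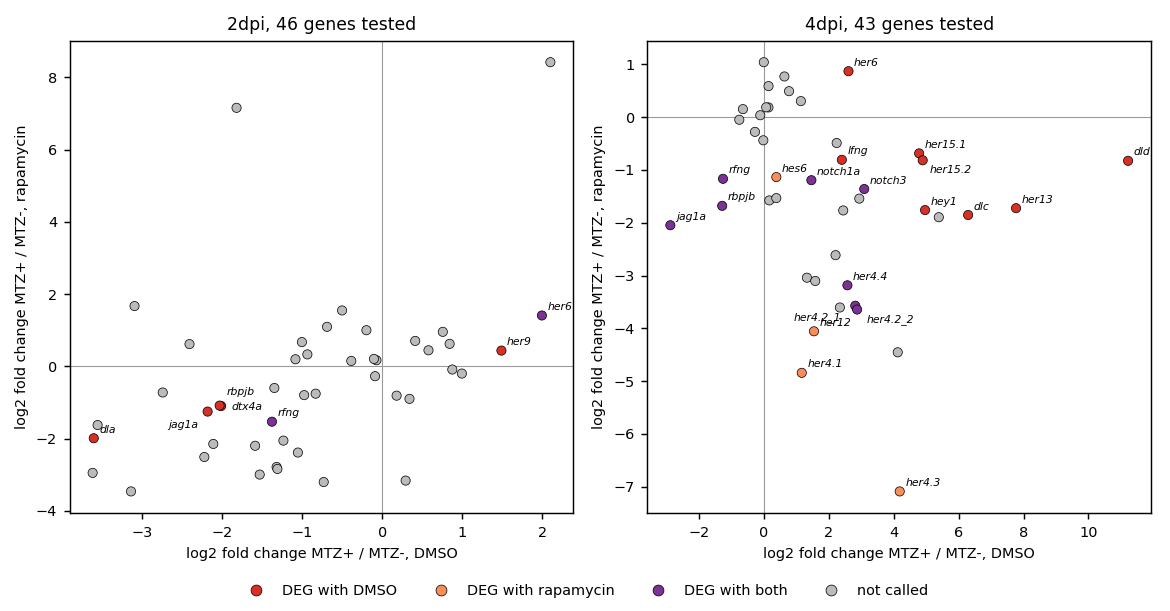
Log2 fold change after ablation (MTZ+ over MTZ-) with DMSO (horizontal axis) and with rapamycin (vertical axis) for the tested Notch pathway genes at 2dpi (46) and 4dpi (43). Colored and named points are DEGs. At 4dpi 5 genes called in both lie to the lower right, higher with DMSO and lower with rapamycin, and 3 lie to the lower left. The corresponding shares of all genes were not computed. Some genes had counts of 0 or 1 in a whole group, and their fitted values are no bounds. These were *dld*, *her13*, *her4.3* and *her2* at 4dpi and *her2*, *her7* and *mfng* at 2dpi.

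Rapamycin against DMSO was compared in ablated and in intact RPE. At 2dpi 0 of 46 genes were called in ablated RPE (0.53% of all genes), 0 in intact RPE (0.0855%) and 0 for the difference between both rapamycin effects (0.0228%). At an unadjusted p under 0.05 the counts were 5, 1 and 5, or 10.9%, 2.17% and 10.9% of the 46, against 13.5%, 7.54% and 7.64% of all genes. DESeq2 called 1, 0 and 0 genes, the one being *dtx2*, against 3.12%, 1.28% and 0.81% of all genes.

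At 4dpi, rapamycin-treated ablated RPE had lower levels of *notch3*, *lfng*, *hey1*, *her12*, *her15.1*, *her4.1*, *her4.2_1*, *her4.2_2* and *her4.4* than DMSO-treated ablated RPE. These 9 of 43 tested genes were all downregulated, while 1.78% of all genes were downregulated DEGs and 2.64% were DEGs in either direction. The near-identical her4 copies among the 9 are counted singly, and with all libraries the sum over 5 her4 copies was called as well. All 17 tested effector genes, which include near-identical her4 and her15 copies, had a fitted log2 fold change below 0, with 7 of them called. The share of all genes below 0 was not computed, and the median over all genes was -0.0226. The count was 5 without MTZ+ DMSO-treated replicate 1, 3 without MTZ+ DMSO-treated replicate 2, 5 without MTZ+ rapamycin-treated replicate 2 and 2 without MTZ+ rapamycin-treated replicate 3. Without replicate 2 of both ablated groups only *notch3* was called.

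In intact RPE at 4dpi, rapamycin-treated libraries had higher *dlc* and *notch1a* and lower *her9*, 3 of 43 genes against 2.1% of all genes, 1.84% upward and 0.257% downward. No gene was called without MTZ- DMSO-treated replicate 1 or without MTZ- DMSO-treated replicate 2. Leaving out MTZ- rapamycin-treated replicate 1 or replicate 3 left *dlc* alone, and 5 genes were called without MTZ- rapamycin-treated replicate 2. DESeq2 called 12 genes there, or 27.9% of the 43, 11 of them upregulated, and 6.05% of all genes.

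The difference between both rapamycin effects at 4dpi, tested as an interaction, was below 0 for 12 genes and above 0 for none, while 2.75% of all genes were called below 0 and 3.32% in either direction. The genes were *notch1a*, *notch3*, *dlc*, *lfng*, *hey1*, *her12*, *her15.1* and the 5 her4 genes. This count was 6 without MTZ- DMSO-treated replicate 2, 5 without MTZ- rapamycin-treated replicate 1, 7 without MTZ+ DMSO-treated replicate 1, 6 without MTZ+ DMSO-treated replicate 2 and 7 without MTZ+ rapamycin-treated replicate 3. Without replicate 2 of both ablated groups it was 3, made up of *notch3*, *her4.2_1* and *her4.2_2*. The near-identical her4 copies are counted singly in these counts, and with all libraries the sum over the 5 copies was called as well.

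The log2 fold change after ablation with DMSO was shifted upward at 4dpi against 2dpi for *dla*, *dlc*, *lfng*, *notch3* and *hey1*, 5 of 48 genes tested and all above 0, while 1.49% of all genes were called in that direction and 2.63% in either. For *dla* the sign was opposite, with -3.60 ± 1.14 at 2dpi and 2.94 ± 1.06 at 4dpi, the latter not called. The same held for *dlc*, with -3.55 ± 1.81 at 2dpi, not called, and 6.29 ± 1.29 at 4dpi. *lfng* was called in each of the 12 fits that left out 1 library, and it was the only gene called in 6 of them. These were the fits without MTZ- DMSO-treated replicate 2 of 2dpi, MTZ+ DMSO-treated replicate 3 of 2dpi, MTZ- DMSO-treated replicate 2 of 4dpi, or any MTZ+ DMSO-treated library of 4dpi. The count was 2 without MTZ- DMSO-treated replicate 1 of 2dpi, 3 without MTZ+ DMSO-treated replicate 2 of 2dpi, and 2 without MTZ- DMSO-treated replicate 1 or 3 of 4dpi.

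In intact DMSO-treated RPE, 9dpf larvae had higher *her9* and lower *notch1a*, *dlc*, *lfng*, *her13* and *hey1* than 7dpf larvae. These were 6 of 48 genes, against 7% of all genes, 2.58% upward and 4.41% downward. The median log2 fold change was -1.41 over the Notch pathway genes and -1.20 with genes at or under the floor in a whole group set to their bound, against -0.07 over all genes. Without MTZ- DMSO-treated replicate 2 of 7dpf only *her9* was called, without replicate 1 or 3 of 9dpf the count was 3, and without replicate 2 of 9dpf it was 0. Cell type markers differed as well. Downregulated DEGs at 9dpf were 5 of 7 cell cycle, 2 of 10 progenitor and neurogenic and 2 of 8 photoreceptor markers. So were 1 of 7 bipolar, 1 of 7 Müller glia and 1 of 9 RPE markers. Upregulated were 2 of 8 epidermal and 1 of 7 Müller glia markers, and 0 of 10 amacrine and ganglion markers were called. The part of these cell types in the Notch pathway levels was not tested.

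Among the receptors, *notch3* (chr3:53526025-53559581, GRCz11) separated ablated DMSO-treated RPE at 4dpi from the other groups of that time point. Its level was 34.8, 33.8 and 26.1 CPM in MTZ+ DMSO-treated libraries and 3.83, 3.4 and 4.48 CPM in MTZ- DMSO-treated ones. With rapamycin it was 3.95, 2.89 and 4.53 CPM after ablation and 15.18, 6.12 and 8.82 CPM without. All 3 ablated DMSO-treated libraries lay above every other 4dpi library. The log2 fold change (± SE) after ablation was 3.09 ± 0.38, adjusted p = 0.000417 with DMSO and -1.36 ± 0.35, adjusted p = 0.0204 with rapamycin. Rapamycin against DMSO gave -3.05 ± 0.37, adjusted p = 0.00544 in ablated RPE, and the interaction was -4.45 ± 0.51, adjusted p = 0.00402. Leaving out any single library kept the calls with DMSO, in ablated RPE and for the interaction, and 4 of 6 such fits kept the one with rapamycin. At 2dpi the levels overlapped, at 7.99, 20.8 and 10.9 CPM after ablation and 10.1, 17.2 and 8.05 CPM without in DMSO-treated larvae, and at 5.57, 10.7 and 4.52 CPM and 22.5, 10.8 and 3.97 CPM in rapamycin-treated ones. The ablation effect rose from 2dpi to 4dpi by 2.85 ± 0.72, adjusted p = 0.0366, a call kept in 2 of 12 fits without 1 library.

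*notch1a* (chr21:4766244-4849056) was lowest in intact DMSO-treated RPE at 4dpi, at 3.87, 3.73 and 3.53 CPM. It measured 7.03, 8.14 and 14 CPM after ablation with DMSO, 20.6, 9.52 and 11.4 CPM in intact and 4.49, 5.99 and 7.17 CPM in ablated rapamycin-treated RPE. Ablation with DMSO changed it by 1.47 ± 0.39, adjusted p = 0.0166 and ablation with rapamycin by -1.19 ± 0.39, adjusted p = 0.0497, and with the date in the raw names as a block the latter had an adjusted p of 0.0708. Rapamycin in intact RPE gave 1.94 ± 0.40, adjusted p = 0.0266, and the interaction was -2.66 ± 0.55, adjusted p = 0.0265. The call under rapamycin ablation was lost in each of the 6 fits without 1 library. At 2dpi it stood at 8.79, 22.3 and 7.77 CPM in intact and 8.25, 5.92 and 5.43 CPM in ablated DMSO-treated RPE, and at 24.7, 18.5 and 5.92 CPM and 9.77, 10.4 and 7.68 CPM with rapamycin. Between 7dpf and 9dpf the intact DMSO-treated groups did not overlap, with a difference of -1.81 ± 0.47, adjusted p = 0.019. This call was kept in 2 of 6 fits without 1 library. In such fits the call for ablation with DMSO was kept in 4 of 6. That for rapamycin in intact RPE was kept in 1 of 6 and the interaction in 5 of 12.

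The most abundant receptor, *notch2* (chr8:19548985-19619792), was called in none of the 12 comparisons. At 2dpi it measured 112, 94.9 and 109.5 CPM in intact and 81.4, 69.8 and 87.1 CPM in ablated DMSO-treated RPE, and 105, 119 and 112 CPM and 129, 91.5 and 146 CPM with rapamycin. At 4dpi the values were 85.8, 145 and 111 CPM and 52.4, 61.7 and 93.4 CPM with DMSO and 63.8, 94 and 93.8 CPM and 93.2, 88.5 and 85.8 CPM with rapamycin. Its log2 fold changes stayed between -0.64 ± 0.25 and 0.63 ± 0.20 in the pairwise comparisons within a time point, with adjusted p of 0.0705 and 0.176. *notch1b* (chr5:65679595-65782785) was the least abundant. It held 4.5, 4.27 and 4.43 CPM in ablated and 1.01, 0.731 and 0.808 CPM in intact DMSO-treated RPE at 4dpi, which did not overlap, with a log2 fold change of 2.45 ± 1.24, adjusted p = 0.157. Under rapamycin it was 0.478, 0 and 2.57 CPM and 7.45, 0.808 and 2.35 CPM. The 2dpi values were 0.501, 0.967 and 1.1 CPM and 1.25, 0.362 and 1.48 CPM with DMSO and 3.43, 0.765 and 1.05 CPM and 0.0287, 0.316 and 0.22 CPM with rapamycin, intact before ablated.

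Of the 9 ligands, *jag1a*, *dla*, *dlc* and *dld* were called. *jag1a* (chr1:51104984-51157660), a Jagged-type ligand, was lower after ablation at both time points. In DMSO-treated larvae it fell from 21.1, 23.3 and 48.6 CPM to 5.08, 3.65 and 11.4 CPM at 2dpi and from 47.6, 33.8 and 66.8 CPM to 6.49, 3.46 and 9.22 CPM at 4dpi, with no overlap at either. The log2 fold changes were -2.18 ± 0.44, adjusted p = 0.00298 and -2.88 ± 0.60, adjusted p = 0.00514. With rapamycin the levels were 19.2, 19.6 and 29.9 CPM without and 9.74, 8.89 and 9.7 CPM with ablation at 2dpi, and 21.6, 43.9 and 37.9 CPM and 14.2, 2.29 and 7.1 CPM at 4dpi. The corresponding values were -1.25 ± 0.43, adjusted p = 0.0626, not called, and -2.05 ± 0.58, adjusted p = 0.029. Both calls with DMSO held in every fit without 1 library, and the call with rapamycin at 4dpi held in 2 of 6. Its paralog *jag1b* (chr13:35339182-35390095) was not called in any comparison. It measured 24.7, 29.4 and 34.5 CPM in intact and 13.9, 13.7 and 21.4 CPM in ablated DMSO-treated RPE at 2dpi, and 20.4, 29 and 38.5 CPM and 11.8, 26.8 and 12.2 CPM with rapamycin. At 4dpi the same 4 groups measured 11.9, 25.9 and 22.6 CPM, 16.8, 19.7 and 26.8 CPM, 10.9, 25.8 and 19.7 CPM and 13.4, 32.7 and 15.3 CPM. Only the DMSO-treated groups at 2dpi did not overlap.

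The Delta-type ligands *dla*, *dlc* and *dld* had their lowest group means in intact DMSO-treated RPE at 4dpi. *dld* (chr13:6075572-6081803) had no count in the 3 intact DMSO-treated libraries at 4dpi, and measured 14.6, 9.71 and 5.29 CPM in the ablated ones, at least 85.5-fold higher than the mean of the libraries' floors (adjusted p = 0.0143). With rapamycin it was 8.74, 0.351 and 10.6 CPM in intact and 1.43, 0 and 9.32 CPM in ablated RPE, and at 2dpi it was 2.92, 9.93 and 5.1 CPM and 6.12, 0 and 0 CPM with DMSO and 12.3, 5.39 and 0 CPM and 0, 1.74 and 0.395 CPM with rapamycin.

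*dlc* (chr15:20463448-20468302) measured 0, 0 and 0.184 CPM in intact DMSO-treated RPE at 4dpi, where 1 library held 5 counts and the others none, and 7.7, 4.14 and 3.11 CPM in ablated RPE. Under rapamycin it was 16.7, 6.22 and 10.1 CPM in intact and 4.02, 0.282 and 4.5 CPM in ablated RPE. The fitted log2 fold changes, which depend on how those zeros are handled, were 6.29 ± 1.29, adjusted p = 0.00474 for ablation with DMSO and 7.40 ± 1.34, adjusted p = 0.0148 for rapamycin in intact RPE. At 2dpi *dlc* was 7.25, 11.8 and 4.35 CPM in intact and 1.77, 0.0329 and 0.16 CPM in ablated DMSO-treated RPE, and 15, 5.86 and 0.412 CPM and 0.316, 6.37 and 0 CPM with rapamycin. The intact DMSO-treated groups of 7dpf and 9dpf did not overlap (adjusted p = 0.0289).

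*dla* (chr1:54013457-54026352) was the most abundant Delta gene. At 2dpi it measured 13.3, 43 and 8.97 CPM in intact and 1.44, 1.94 and 1.96 CPM in ablated DMSO-treated RPE, a log2 fold change of -3.60 ± 1.14, adjusted p = 0.0395, and this call held in 1 of 6 fits without 1 library. At 4dpi the order was reversed, with 0.842, 2.05 and 1.69 CPM in intact and 15.6, 10.9 and 6.92 CPM in ablated RPE, which gave 2.94 ± 1.06, adjusted p = 0.0545 and no call. The difference between both ablation effects was 6.47 ± 1.66, adjusted p = 0.041, and it held in 1 of 12 fits without 1 library. With rapamycin *dla* was 44.5, 13.1 and 1.99 CPM in intact and 4.48, 9.58 and 0.615 CPM in ablated RPE at 2dpi, and 27.5, 4.46 and 24.2 CPM and 5.29, 0.212 and 13.2 CPM at 4dpi. The remaining ligands *dlb*, *dll4*, *jag2a* and *jag2b* were not called, with group means up to 6.20 CPM.

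Of the Fringe enzymes, *lfng* (chr3:41917499-41926869) was higher after ablation with DMSO at 4dpi. At that time point it measured 134, 125 and 121 CPM in ablated and 38.8, 12.9 and 24.2 CPM in intact DMSO-treated RPE. In rapamycin-treated RPE it was 31.3, 22.3 and 32.6 CPM after ablation and 60.5, 31 and 65 CPM without. The ablated DMSO-treated libraries were the 3 highest of the 24. Ablation with DMSO gave 2.40 ± 0.39, adjusted p = 0.00147, rapamycin in ablated RPE -2.13 ± 0.38, adjusted p = 0.0155 and the interaction -3.21 ± 0.53, adjusted p = 0.0117. At 2dpi the 4 groups overlapped, with 67.5, 78.4 and 53 CPM in intact and 65.5, 72.1 and 46.9 CPM in ablated DMSO-treated RPE, and 92.7, 63.3 and 36.4 CPM and 55.5, 55.4 and 45.9 CPM with rapamycin. The change of the ablation effect from 2dpi to 4dpi was 2.43 ± 0.50, adjusted p = 0.0149, and intact DMSO-treated RPE was lower at 9dpf than at 7dpf (-1.39 ± 0.35, adjusted p = 0.0158).

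The related *rfng* (chr12:3054442-3077395) instead was lower after ablation in all 4 comparisons. In DMSO-treated larvae it fell from 50.6, 34.8 and 59.8 CPM to 21.1, 12.4 and 21.4 CPM at 2dpi and from 48.9, 79.2 and 73.2 CPM to 25.2, 24.3 and 30.5 CPM at 4dpi. In rapamycin-treated larvae it fell from 40.1, 44.9 and 51.1 CPM to 18.7, 12.9 and 14.8 CPM and from 38.6, 74.4 and 43.5 CPM to 28.9, 16.7 and 20.7 CPM. None of these 4 pairs of groups overlapped. The log2 fold changes were -1.38 ± 0.28, adjusted p = 0.00283 and -1.26 ± 0.30, adjusted p = 0.00921 with DMSO, and -1.53 ± 0.28, adjusted p = 0.00209 and -1.17 ± 0.30, adjusted p = 0.0183 with rapamycin. Every fit without 1 library kept the call in the first 3, and 3 of 6 did for rapamycin at 4dpi. The third Fringe gene, *mfng*, ranged from 0 to 13.3 CPM within 1 group and was not called.

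The 7 ubiquitin ligases and adaptors held 1 call. *mib1* (chr2:4074412-4161277), a ligase acting on Notch ligands, lay between 17.0 and 31.8 CPM in all 24 libraries and was not called. At 2dpi it was 27, 28.8 and 27.8 CPM in intact and 31.8, 17 and 29.5 CPM in ablated DMSO-treated RPE, and 29.4, 27.2 and 25.4 CPM and 31.1, 30.8 and 28.8 CPM with rapamycin. The 4dpi values were 27.7, 26.9 and 26.3 CPM, 24, 18.3 and 21.1 CPM, 23, 30.7 and 25.1 CPM and 18.6, 26.5 and 17.4 CPM in the same order. The call was *dtx4a* (chr7:18557939-18601206), a Deltex-type gene, which was 12, 14.2 and 10.5 CPM in intact and 2.62, 2.6 and 3.75 CPM in ablated DMSO-treated RPE at 2dpi. Its log2 fold change of -2.01 ± 0.39, adjusted p = 0.00233 held in every fit without 1 library. With rapamycin it was 8.21, 9.42 and 4.27 CPM and 3.68, 3.05 and 3.34 CPM at 2dpi, and at 4dpi 9.39, 6.21 and 7.86 CPM, 5.54, 14.1 and 5.33 CPM, 7.42, 7.84 and 7.56 CPM and 5.16, 0.317 and 1.76 CPM in the 4 groups as ordered above. *numb* and *numbl*, which encode Numb proteins, were not called.

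Of the 2 RBPJ genes, which encode the DNA-binding partner of the receptor's intracellular domain, only *rbpjb* was called, and it was lower after ablation. *rbpjb* (chr7:62080456-62206933) was 22.6, 42.3 and 26.8 CPM in intact and 6.01, 10.9 and 5.27 CPM in ablated DMSO-treated RPE at 2dpi, and 16.9, 31.9 and 31.9 CPM and 11.7, 5.16 and 14.7 CPM at 4dpi. Under rapamycin it was 31.3, 21.8 and 18.8 CPM and 14.2, 8.45 and 10.8 CPM at 2dpi, and 30.6, 26 and 40.3 CPM and 8.45, 9.09 and 11.5 CPM at 4dpi. Ablated groups lay below intact groups without overlap in all 4 pairs. The log2 fold changes were -2.03 ± 0.37, adjusted p = 0.00152 and -1.28 ± 0.38, adjusted p = 0.0253 with DMSO, and -1.09 ± 0.36, adjusted p = 0.0546, not called, and -1.68 ± 0.38, adjusted p = 0.011 with rapamycin. Fits without 1 library kept the call in 6 of 6 at 2dpi, in 3 of 6 at 4dpi with DMSO and in 6 of 6 at 4dpi with rapamycin.

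*rbpja* (chr1:14454663-14464020) had higher means after ablation, at 19.6, 31.6 and 34.3 CPM against 15.7, 18.4 and 17.2 CPM with DMSO at 2dpi and 27.3, 33.1 and 17.9 CPM against 11.1, 15.4 and 14.7 CPM with rapamycin. At 4dpi it measured 18.8, 17 and 28.2 CPM after ablation and 13.3, 12.9 and 17.2 CPM without in DMSO-treated RPE, and 21.2, 32.5 and 25.6 CPM and 16, 16.7 and 15.5 CPM in rapamycin-treated RPE. The differences were 0.76 ± 0.29, adjusted p = 0.074 and 0.63 ± 0.25, adjusted p = 0.0705 with DMSO. With rapamycin they were 0.95 ± 0.29, adjusted p = 0.0376 and 0.77 ± 0.25, adjusted p = 0.0461. Neither of the latter reached an absolute log2 fold change of 1, so *rbpja* was called in none of the comparisons. The Mastermind genes *maml1* and *maml3* were not called.

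Among the effectors, *her6* (chr6:36551083-36552844) was higher after ablation at both time points. With DMSO it rose from 23.8, 15.5 and 11.2 CPM to 99, 56.1 and 43 CPM at 2dpi and from 17.4, 9.97 and 12.6 CPM to 44.8, 116 and 71.1 CPM at 4dpi, with no overlap at either. The log2 fold changes were 1.99 ± 0.39, adjusted p = 0.00227 and 2.61 ± 0.43, adjusted p = 0.00172, and both calls held in every fit without 1 library. With rapamycin it rose at 2dpi from between 8.58 and 15.4 CPM in the 3 intact libraries to 25.8, 33.8 and 42.5 CPM, by 1.41 ± 0.38, adjusted p = 0.0215, which held in 3 of 6 such fits. At 4dpi the rapamycin-treated groups overlapped, at 16.4, 7.7 and 18.5 CPM in intact and 16.1, 27.4 and 31.9 CPM in ablated RPE, with 0.87 ± 0.41, adjusted p = 0.16 and no call.

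*her9* (chr23:23399520-23401305), the most abundant of the 53 genes, was 29.2, 31.5 and 20.7 CPM in intact and 83.1, 91.7 and 50.5 CPM in ablated DMSO-treated RPE at 2dpi, without overlap and with a log2 fold change of 1.49 ± 0.33, adjusted p = 0.0049. At 4dpi it was 68, 114 and 44.9 CPM in intact and 51.9, 84.9 and 78.6 CPM in ablated RPE, the groups overlapped and the ablation effect was not called (adjusted p = 1). Rapamycin-treated libraries held 33.7, 54.2 and 24.8 CPM without and 42.4, 44.7 and 62.8 CPM with ablation at 2dpi, and 19.3, 29.2 and 19.5 CPM and 27.8, 70.7 and 36.5 CPM at 4dpi. In intact RPE at 4dpi it was lower with rapamycin (-1.71 ± 0.40, adjusted p = 0.0449), a call that 1 of 6 fits without 1 library kept. Intact DMSO-treated RPE was higher at 9dpf than at 7dpf (1.48 ± 0.38, adjusted p = 0.0168), kept in 3 of 6. Over the 24 libraries and the 36 genes at 1 TPM or above, the genes whose log2(CPM + 1) was most like that of *her9* were *her6* (Pearson r = 0.57), *maml1* (0.47), *rbpja* (0.25), *numb* (0.25) and *her15.1* (0.25). These describe libraries that share groups and depth.

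A cluster of near-identical her4 genes and *her12* lies together on chromosome 23 (GRCz11 21444922 to 21471022). How reads matching several copies were counted is not given in the sources used here, *her4.2_1* also overlaps *her4.3* on the same strand, and single copies are therefore uncertain. Summed over the 5 copies, her4 was 294, 172 and 82.2 CPM in ablated and 56, 11 and 35.8 CPM in intact DMSO-treated RPE at 4dpi. With rapamycin the order was reversed, with 4.84, 17.8 and 2.52 CPM in ablated and 132, 42.2 and 158 CPM in intact RPE. Neither pair of groups overlapped. Ablation changed the sum by 2.50 ± 0.81, adjusted p = 0.0369 with DMSO and by -3.69 ± 0.85, adjusted p = 0.0121 with rapamycin. Rapamycin in ablated RPE gave -4.46 ± 0.88, adjusted p = 0.0231, and the interaction was -6.19 ± 1.17, adjusted p = 0.0198. At 2dpi the sum was 116, 161 and 84.4 CPM in intact and 81, 70.8 and 1.76 CPM in ablated DMSO-treated RPE, and 145, 40.1 and 34.3 CPM and 2.62, 22 and 17.2 CPM with rapamycin, with no call. Summing was added after the data had been seen. The her4 and her15 sums were fitted with all libraries only. How they depend on single libraries or on the block was not tested.

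*her4.2_1*, the most abundant copy, was 28.6, 6.8 and 14.2 CPM in intact and 178, 112 and 39.7 CPM in ablated DMSO-treated RPE at 4dpi, and 69.4, 21.4 and 87.9 CPM and 2.01, 11.6 and 1.11 CPM with rapamycin. At 2dpi it was 54.3, 88.1 and 46 CPM and 42.7, 46 and 1.12 CPM with DMSO and 73, 20.3 and 18.7 CPM and 0.862, 10.7 and 9.48 CPM with rapamycin. It differed by 2.82 ± 0.90, adjusted p = 0.0357 after ablation with DMSO, by -3.57 ± 0.94, adjusted p = 0.0214 with rapamycin, and by -4.5 ± 0.98, adjusted p = 0.0312 between rapamycin and DMSO in ablated RPE. With that date as a block, the first and the last had adjusted p of 0.0591 and 0.053.

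*her4.4* was 7.87, 1.5 and 5.33 CPM in intact and 46.1, 26.3 and 10.1 CPM in ablated DMSO-treated RPE at 4dpi, and 21.3, 6.89 and 24.4 CPM and 1.18, 3.81 and 0.668 CPM with rapamycin. The ablation effects were 2.58 ± 0.81, adjusted p = 0.0335 with DMSO and -3.19 ± 0.84, adjusted p = 0.0215 with rapamycin, and rapamycin in ablated RPE gave -3.88 ± 0.86, adjusted p = 0.0344. With the block, the adjusted p was 0.0535 for the first and 0.0588 for the last. *her4.2_2* was 6.27, 0.95 and 3.05 CPM in intact and 42.2, 18.5 and 10.1 CPM in ablated DMSO-treated RPE, and 13.7, 3.44 and 17.6 CPM and 0.446, 2.01 and 0.272 CPM with rapamycin. It changed by 2.87 ± 0.92, adjusted p = 0.0354 and -3.64 ± 0.96, adjusted p = 0.0219 after ablation, and by -4.72 ± 1.01, adjusted p = 0.0294 with rapamycin in ablated RPE, where the block gave an adjusted p of 0.0538. All 3 copies kept the DMSO ablation call in 2 of 6 fits without 1 library and the rapamycin ablation call in 3 of 6. For rapamycin in ablated RPE, *her4.2_1* and *her4.4* kept the call in 2 of 6 and *her4.2_2* in 1 of 6. At 2dpi *her4.4* was 18.8, 28 and 15.5 CPM and 13.5, 12.5 and 0.16 CPM with DMSO and 26.1, 7.19 and 5.51 CPM and 0.575, 4.08 and 4.52 CPM with rapamycin, and *her4.2_2* was 12.2, 18.4 and 9.76 CPM, 6.82, 8.78 and 0.479 CPM, 20.5, 6.02 and 4.27 CPM and 0, 2.66 and 1.54 CPM.

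*her4.1* overlapped between ablated and intact DMSO-treated RPE at 4dpi, at 25.2, 12.2 and 22.3 CPM and 13.1, 1.79 and 13.1 CPM, and the difference of 1.17 ± 0.70, adjusted p = 0.231 was not called. With rapamycin it was 1.21, 0.317 and 0.47 CPM in ablated and 25.7, 8.82 and 25.6 CPM in intact RPE, a change of -4.84 ± 0.83, adjusted p = 0.00315 that held in every fit without 1 library. Rapamycin in ablated RPE gave -4.87 ± 0.83, adjusted p = 0.0132, kept in 5 of 6. The 2dpi values were 28.8, 23.8 and 11.6 CPM and 17.5, 3.52 and 0 CPM with DMSO and 21.4, 6.39 and 4.98 CPM and 1.18, 4.34 and 1.45 CPM with rapamycin. *her4.3* was the least abundant copy, with 0.168, 0 and 0.11 CPM in intact and 2.57, 2.33 and 0.0389 CPM in ablated DMSO-treated RPE at 4dpi. Intact rapamycin-treated RPE held 2.48, 1.69 and 2.01 CPM, or 188 counts in all, and ablated rapamycin-treated RPE held 1 count. That ratio was 208.3 with an exact 95% interval from 36.9 to 8269, which covers counting error only. At 2dpi *her4.3* was 1.62, 2.17 and 1.58 CPM and 0.589, 0 and 0 CPM with DMSO and 4.25, 0.233 and 0.861 CPM and 0, 0.289 and 0.176 CPM with rapamycin.

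*her12* (chr23:21444922-21446985), beside the her4 genes, was 36.8, 25.6 and 10.7 CPM in ablated and 20.6, 1.68 and 4.26 CPM in intact DMSO-treated RPE at 4dpi, and these groups overlapped. In rapamycin-treated RPE it was 0.701, 0.353 and 0.396 CPM after ablation and 11.7, 1.37 and 12.1 CPM without. The log2 fold change was -4.06 ± 1.04, adjusted p = 0.0192 for ablation with rapamycin and -5.63 ± 1.11, adjusted p = 0.0224 for rapamycin in ablated RPE, calls kept in 3 of 6 and 2 of 6 fits without 1 library. At 2dpi it was 3.66, 11.8 and 2.23 CPM in intact and 3.46, 0 and 0.279 CPM in ablated DMSO-treated RPE, and 10.7, 2.23 and 3.03 CPM and 0, 1.34 and 1.41 CPM with rapamycin.

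The paired genes *her15.1* (chr11:41981959-41984487) and *her15.2* (chr11:41994287-41996957), which resemble mammalian HES5 and each other, had their highest levels in ablated DMSO-treated RPE at 4dpi. *her15.1* was 49, 76.8 and 42.5 CPM there and 3.83, 1.64 and 0.992 CPM in intact RPE. *her15.2* was 55.2, 59.1 and 34.7 CPM and 4.84, 0 and 0.514 CPM. Each library of the ablated group exceeded all other 4dpi libraries. The log2 fold changes were 4.79 ± 0.69, adjusted p = 0.000893 and 4.89 ± 1.24, adjusted p = 0.0128, both kept in every fit without 1 library. In rapamycin-treated RPE *her15.1* was 5.42, 6.17 and 7.54 CPM after ablation and 12.9, 2.57 and 16.3 CPM without, and *her15.2* was 3.7, 6.98 and 7.79 CPM and 11.2, 2.32 and 20.2 CPM. Rapamycin in ablated RPE gave -3.13 ± 0.64, adjusted p = 0.0237 for *her15.1*, kept in 2 of 6, and -3.01 ± 1.12, adjusted p = 0.167 for *her15.2*, not called.

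Summed, the 2 her15 copies gave -3.07 ± 0.76, adjusted p = 0.0498 for rapamycin in ablated RPE. At 2dpi *her15.1* was 4.57, 20.3 and 2.06 CPM in intact and 22.8, 18 and 7.31 CPM in ablated DMSO-treated RPE, and 12.4, 3.23 and 3.75 CPM and 7.47, 9.68 and 12.3 CPM with rapamycin. *her15.2* was 8.4, 28.5 and 2.09 CPM, 22, 23.7 and 5.87 CPM, 12.2, 3.43 and 2.21 CPM and 6.41, 9.68 and 12.6 CPM in the same order. Neither was called at 2dpi.

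*hey1* (chr19:31797567-31802296) was 12.7, 20.7 and 22.1 CPM in ablated and 0.8, 0.548 and 0.514 CPM in intact DMSO-treated RPE at 4dpi, and 1.66, 1.13 and 0.0989 CPM and 5.64, 1.55 and 2.86 CPM with rapamycin. The ablated DMSO-treated libraries were the 3 highest of the 24. Ablation with DMSO gave 4.97 ± 0.88, adjusted p = 0.00233, kept in every fit without 1 library. Rapamycin in ablated RPE gave -4.25 ± 0.84, adjusted p = 0.0231, kept in 3 of 6. At 2dpi it was 1.18, 12.1 and 2.43 CPM and 3.83, 8.68 and 2.12 CPM with DMSO and 3.6, 1.1 and 1.01 CPM and 0.632, 1.63 and 4.26 CPM with rapamycin, and the ablation effect differed between time points by 5 ± 1.32, adjusted p = 0.0446, with an adjusted p of 0.0555 in the blocked fit. The lower level in intact DMSO-treated RPE at 9dpf than at 7dpf, -3.08 ± 0.96, adjusted p = 0.0488, was kept in 2 of 6 fits without 1 library, although the groups did not overlap.

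*her13* (chr15:7187228-7190183) had no count in intact DMSO-treated RPE at 4dpi and 0.901, 1.36 and 0.428 CPM in ablated RPE, at least 7.77-fold above the mean floor (adjusted p = 0.0431). This call was lost in each of the 6 fits without 1 library and with the block (adjusted p = 0.0517). With rapamycin at 4dpi it was 4.39, 0 and 3.92 CPM in intact and 0.638, 0.0353 and 1.76 CPM in ablated RPE. At 2dpi it was 0.442, 18.2 and 0.925 CPM and 1.55, 0.0329 and 0 CPM with DMSO and 2.48, 1.5 and 0.187 CPM and 0.201, 0.263 and 0.0439 CPM with rapamycin, so 1 of the 3 intact DMSO-treated libraries carried most of it. The intact groups differed at least 56.6-fold between 7dpf and 9dpf against the floor (adjusted p = 0.0234). Without MTZ- DMSO-treated replicate 2 of 7dpf this bound was 5.92-fold, and 2 of 6 fits without 1 library kept the call.

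*hes6* (chr2:48288461-48304696), whose mouse counterpart promotes neuronal differentiation, overlaps *itm2cb* on the opposite strand, and how strand was handled is not given in the sources used here. It was 62.5, 27.2 and 47.4 CPM in intact and 23.4, 13.4 and 23.4 CPM in ablated rapamycin-treated RPE at 4dpi, a log2 fold change of -1.14 ± 0.34, adjusted p = 0.0368 that was kept in 2 of 6 fits without 1 library. With DMSO it was 25.9, 17 and 25.3 CPM and 33.9, 24 and 26.5 CPM. At 2dpi it was 41.5, 109 and 32.3 CPM and 21.9, 35.5 and 13.9 CPM with DMSO and 68.4, 58 and 23 CPM and 29.7, 27.3 and 40.2 CPM with rapamycin. The other effectors were called in no comparison, among them *hes2.2*, which ranged from 0 to 58.5 CPM between libraries, *her8a*, *her2* and *hey2*.

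**Figure D3:**
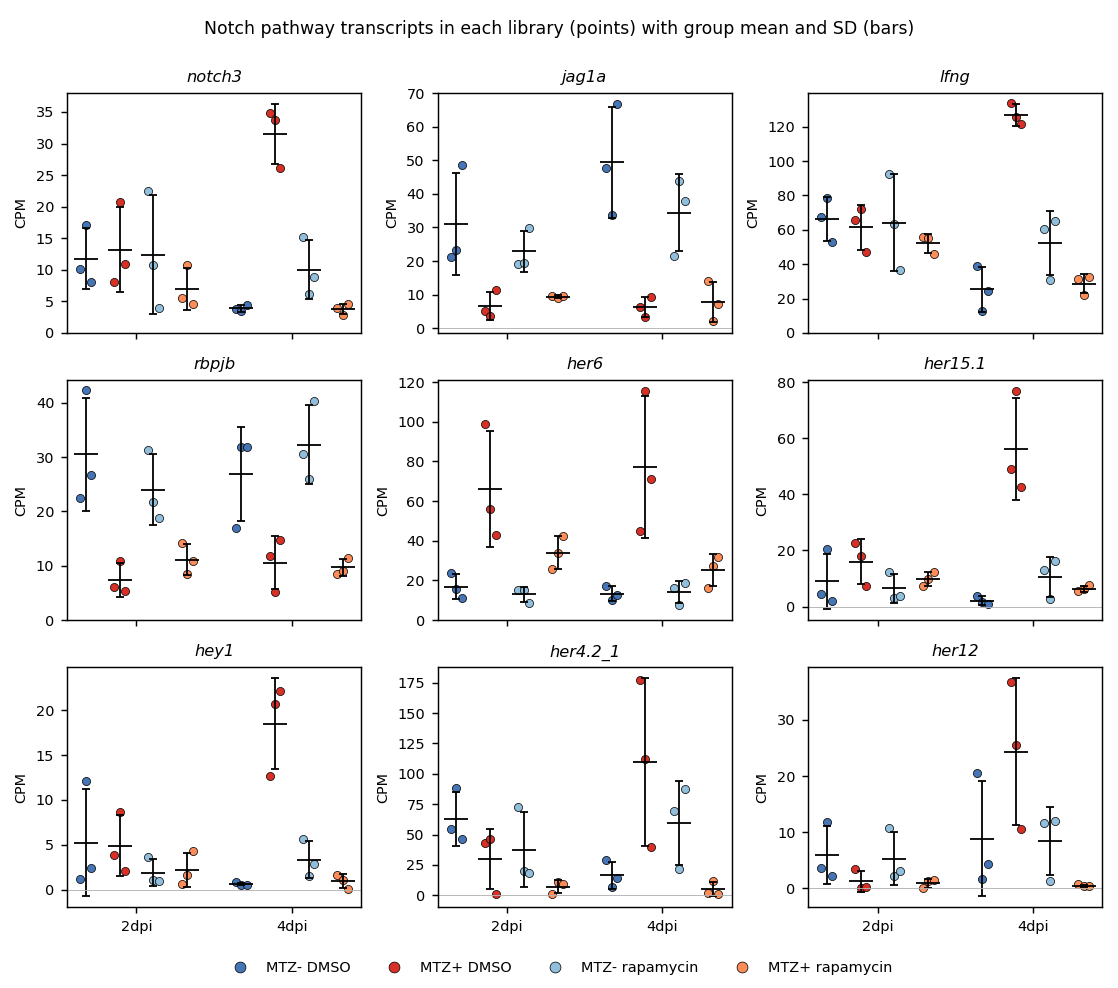
Level in CPM of 9 Notch pathway genes in each library (points), with group mean and SD (bars), for the 4 groups of each time point. At 4dpi *notch3*, *lfng*, *her15.1* and *hey1* are higher in all 3 MTZ+ DMSO-treated libraries than in the other 9, while *jag1a* and *rbpjb* are lower after ablation with either treatment.

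Marker genes of other retinal cells moved with this 4dpi pattern. In DMSO-treated RPE at 4dpi, 5 of 10 progenitor and neurogenic markers were upregulated DEGs after ablation, as were 5 of 7 Müller glia markers, 4 of 9 tested amacrine and ganglion cell markers, 2 of 8 photoreceptor markers, 3 of 7 bipolar cell markers and all 7 cell cycle markers, while 14.3% of all genes were upregulated. Of the Müller glia and the bipolar markers, 1 each was downregulated. After ablation with rapamycin, 1 of 10 progenitor and neurogenic and 1 of 9 amacrine and ganglion markers were downregulated DEGs, against 6.94% of all genes. So were 2 of 7 Müller glia, 3 of 8 photoreceptor and 3 of 7 bipolar markers, and 1 bipolar marker was upregulated. For rapamycin in ablated RPE, 0 of 10 progenitor and neurogenic and 2 of 9 amacrine and ganglion markers were downregulated, against 1.78%. The summed progenitor and neurogenic markers ranged from 129.9 to 425.4 CPM in ablated and from 21.6 to 97.7 CPM in intact DMSO-treated libraries, and from 17.3 to 128.0 CPM and 175.4 to 631.6 CPM with rapamycin. For the amacrine and ganglion markers the ranges were 121.9 to 140.4 CPM and 4.64 to 18.9 CPM with DMSO, and 8.42 to 25.7 CPM and 45.4 to 122.0 CPM with rapamycin. In that sum *rbpms2b* alone averaged 88.5 CPM in ablated DMSO-treated RPE. Cell cycle markers summed to 216.7 to 233.4 CPM in ablated and 40.7 to 69.6 CPM in intact DMSO-treated libraries, and to 149.5 to 253.6 CPM and 104.8 to 316.0 CPM with rapamycin. The cell cycle sum overlapped between ablated and intact rapamycin-treated RPE. In the cell cycle sum *pcna* alone averaged 161.8 CPM in ablated and 114.3 CPM in intact rapamycin-treated RPE. After ablation with rapamycin 1 of the 7 genes was higher, 0 were called and the median log2 fold change was -1.195. For the 4dpi interaction 4 of 7 were called below 0, against 2.75% of all genes, with a median of -6.715. The part of cell cycling in the her4 levels was not tested.

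Of the Müller glia markers, *glula* and *cx43* were abundant in intact RPE as well and *cx43* was lower after ablation, and the sum of 7 was 12590 to 15420 CPM in intact and 9466 to 12830 CPM in ablated DMSO-treated libraries at 4dpi. Under rapamycin it was 10340 to 11210 CPM in intact and 597.6 to 2490.0 CPM in ablated libraries. The defining marker *gfap* was 10.3, 29.2 and 7.66 CPM in ablated and 1.05, 0.11 and 0 CPM in intact DMSO-treated RPE, and 0.924, 1.59 and 3.39 CPM and 1.63, 0.211 and 1.23 CPM with rapamycin. *slc1a2b*, a glial glutamate transporter, was 488, 893 and 686 CPM and 37.3, 23.6 and 31.6 CPM with DMSO, and 47.6, 37.5 and 113 CPM and 161, 58.3 and 138 CPM with rapamycin. At 2dpi *gfap* was 5.97, 5.75 and 2.48 CPM in ablated and 0.354, 0.497 and 0.0342 CPM in intact DMSO-treated RPE. Of the 7 Müller glia markers, 3 were upregulated and 1 was a downregulated DEG in that comparison. The her4 sum at 2dpi was lower in all 3 ablated DMSO-treated libraries than in the intact ones. Its log2 fold change was -1.21 ± 1.1, adjusted p = 0.481, with no call. The part of Müller glia in the her4 levels was not tested.

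*atoh7*, which marks newborn retinal neurons, had no count in the 3 ablated DMSO-treated libraries at 4dpi. It was 0, 0 and 9.95 CPM in the intact ones. Of the 10 progenitor and neurogenic markers, 9 were higher after ablation in this comparison, with a median log2 fold change of 2.82. The 10 endothelial markers summed to 15.6, 9.08 and 9.37 CPM in ablated and 4.335, 5.7 and 3.93 CPM in intact DMSO-treated libraries at 4dpi. Of the 6 tested there, 4 were higher after ablation and 0 were called. With rapamycin the endothelial sum was 2.65, 5.11 and 5.39 CPM in ablated and 8.925, 5.52 and 3.75 CPM in intact libraries. The one mural cell marker called was *pdgfrb*, which rose from 6.69, 5.59 and 1.95 CPM to 34.3, 57.5 and 32.2 CPM with DMSO. The whole list of 8 summed to 36.6, 58.2 and 32.4 CPM in those ablated libraries, and *pdgfrb* made up most of that sum. Only 2 of the 8 were tested. With rapamycin at 4dpi *pdgfrb* was 1.31, 4.05 and 3.34 CPM in ablated and 3.59, 6.57 and 5.82 CPM in intact RPE. The part of these cell types in the levels of the Notch pathway genes was not tested.

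**Figure D4:**
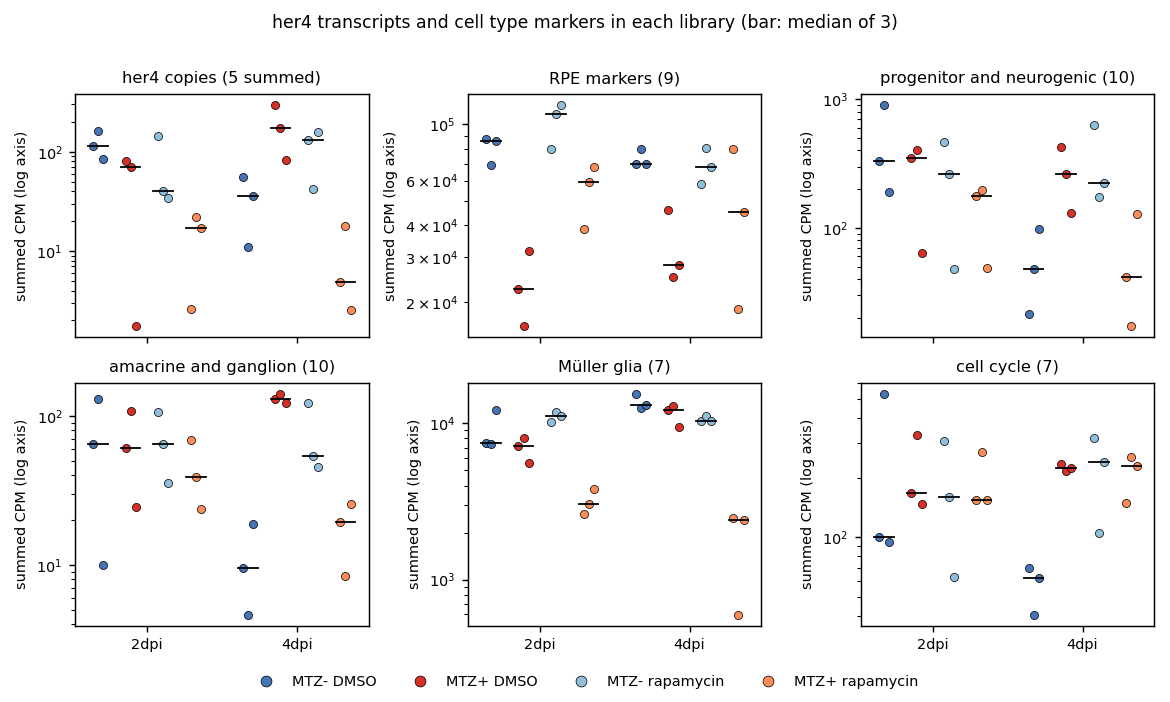
Summed CPM (log axis) of the 5 her4 copies and of 5 marker lists in each library (points), with the median of each group (bars). At 4dpi the her4 sum, the progenitor and the amacrine and ganglion lists are lower in intact than in ablated DMSO-treated RPE and higher in intact than in ablated rapamycin-treated libraries, while RPE markers are lower in all 3 ablated than in all 3 intact DMSO-treated libraries at both time points.

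Other genes of the pathway were taken from a list of 71 genes, 66 of which are in the tables, covering secretase subunits, receptor-cutting proteases, glycosylation, trafficking, nuclear cofactors and feedback genes. Of 62 tested at 4dpi, 4 were upregulated and 7 downregulated after ablation with DMSO (17.7%, against 23.5% of all genes), and 3 and 4 with rapamycin (11.3%, against 15.6%). For rapamycin against DMSO they were 0 and 1 in ablated RPE (1.61%, against 2.64%) and 1 and 1 in intact RPE (3.23%, against 2.1%). For the interaction they were 0 and 1 (1.61%, against 3.32%). At 2dpi, of 63 tested, 2 rose and 4 fell after ablation with DMSO (9.52%, against 21.2%), and 1 and 4 with rapamycin (7.94%, against 14.4%). None was called there for rapamycin in ablated RPE, in intact RPE or for the interaction, against 0.53%, 0.0855% and 0.0228% of all genes. The list median of the log2 fold change was -0.14 for ablation with DMSO at 4dpi, against 0.27 over all genes.

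*nrarpa*, which encodes a feedback inhibitor that Notch signaling itself induces, was called in 5 of the comparisons. At 4dpi it was 28.1, 48.8 and 33.1 CPM in ablated and 7.83, 6.91 and 9.84 CPM in intact DMSO-treated RPE, and 10.9, 13.6 and 16 CPM and 21.8, 9.21 and 15.9 CPM with rapamycin. The DMSO-treated groups did not overlap. Ablation with DMSO gave 2.24 ± 0.35, adjusted p = 0.00126, rapamycin in ablated RPE -1.44 ± 0.34, adjusted p = 0.043 and the interaction -2.41 ± 0.48, adjusted p = 0.0234. It was also called for the change of the ablation effect from 2dpi to 4dpi, 2.33 ± 0.55, adjusted p = 0.0274, and in intact RPE between 7dpf and 9dpf, -1.52 ± 0.40, adjusted p = 0.0177. All 5 comparisons include DMSO-treated libraries of 4dpi, so these calls are not independent.

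*adam10a*, encoding a protease that cuts ligand-bound Notch, was lower after ablation in all 4 comparisons, from 822.9 ± 94.5 CPM to 259.9 ± 81.0 CPM (SD, n = 3) with DMSO at 2dpi and from 971.5 ± 140.0 CPM to 245.0 ± 71.1 CPM at 4dpi. With rapamycin it went from 886.4 ± 216.6 CPM to 377.0 ± 138.5 CPM and from 949.5 ± 263.4 CPM to 433.4 ± 201.4 CPM. *wdr12*, a ribosome biogenesis factor, rose after ablation in all 4, by log2 fold changes from 1.5 ± 0.40 to 3.05 ± 0.30, and *bhlhe41*, a repressor of the clock machinery, fell in all 4, by values from -1.84 ± 0.25 to -2.11 ± 0.46. *cdk8*, encoding a Mediator kinase, was called after ablation with DMSO at both time points (1.56 ± 0.25, adjusted p = 0.00073 and 1.98 ± 0.23, adjusted p = 0.000333). It was not called after ablation with rapamycin, and its interaction was not called at either. At 4dpi *cdk8* was 40.9, 57 and 43.3 CPM in ablated and 24.9, 30.9 and 26.5 CPM in intact rapamycin-treated RPE. It was also called for rapamycin in intact RPE at 4dpi (1.40 ± 0.22, adjusted p = 0.00908) and for 9dpf against 7dpf (-1.10 ± 0.24, adjusted p = 0.00541). Other genes of this list called after ablation included *kdm5bb*, *tle5*, *gxylt1b*, *bhlhe40*, *adam10b*, *aak1a*, *ctbp2a*, *kat2b*, *pofut1* and *nedd4a*.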

How the data were processed

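RNA-seq was measured in 24 libraries of sorted eGFP+ cells, 3 in each of 8 groups, grouped by the submitters' labels. The authors mapped reads to GRCz11 in CLC Genomics Workbench (version, and handling of strand and of reads with several matches, not given in the sources used here) and deposited 2 gene tables, 1 per time point. These deposited tables hold counts per gene, not normalized, which were tested, and TPM, which the authors scaled for transcript length and which was used for levels between genes and for the expression filter. Columns with the authors' own fold changes and p-values were not used, and 0 sample columns were left unmapped.

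Counts were tested with edgeR 4.0.16 (R 4.3.3, limma 3.58.1), with TMM scaling, filterByExpr at a minimum count of 10, and the quasi-likelihood test, in 1 fit per time point over its 4 groups and in 1 fit over 24 libraries for the comparisons across time. P-values were adjusted by Benjamini-Hochberg over all tested genes, and ± after a log2 fold change is its SE. CPM are scaled with TMM factors over 24 libraries. The test was checked on simulated data. With 3 libraries against 3 an exact permutation test cannot go below p = 0.1, so none was used. Replicates are separate pools of eyes. Libraries with the same number within 2dpi or 4dpi have the same date in the raw names the labels give, which was taken to pair them. Their deviations from group means correlated at a mean of 0.153 at 2dpi (single pairs from -0.126 to 0.395) and 0.062 at 4dpi (-0.0704 to 0.347). For other numbers the means were -0.0766 and -0.0311. These largely follow from the same-number means, because deviations within a group cancel out, and give no separate support for pairing.

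Genes given with every library's value were the receptors, *rbpja*, *rbpjb*, each gene called in any comparison and the gene with the highest TPM of each role (for *her6* 1 group is given as a range). Members and lists were chosen with earlier results of these data known. Alternatives were DESeq2 1.42.0 with its size factors, other filters, the replicate block, fits with only the compared groups, and fits without single libraries. Sums over near-identical copies were added after the data had been seen.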

Additional observations from a re-analysis of the deposited data

Results flagged for a closer look

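The rapamycin effect at 4dpi differed between ablated and intact RPE, by the test of the interaction, for 12 Notch pathway genes, all with a more negative value in ablated RPE. The log2 differences were -2.66 for *notch1a*, -4.45 for *notch3*, -8.15 for *dlc*, -3.21 for *lfng*, -5.47 for *her15.1*, -6.73 for *hey1* and -5.60 for *her12*. Among the her4 copies they were -6.01 for *her4.1*, -6.39 for *her4.2_1*, -6.52 for *her4.2_2*, -11.28 for *her4.3* and -5.76 for *her4.4*. The values of *dlc* and *her4.3* rest on groups with few or no counts. Each of the 12 fits without 1 library kept the call of *notch3*, *lfng*, *hey1*, *her15.1* and *her4.1*, and 2 of 12 kept that of *her12*. With the replicate block the adjusted p of *her4.3* was 0.0518.

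The ablation effect with DMSO differed between 4dpi and 2dpi, by the test of that difference, for 5 genes, all with a higher value at 4dpi. The log2 differences were 6.47 for *dla*, 2.43 for *lfng*, 2.85 for *notch3*, 9.79 for *dlc* and 4.997 for *hey1*. Age and the date in the raw names cannot be told apart here.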

How the results depend on the processing

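Over 72 gene and comparison pairs that were called, 925 alternative values were computed, of which 664 kept the call, 261 kept the direction without passing the threshold and 0 changed direction. Of the latter 261, 206 came from fits without 1 library, and 22 of the 72 pairs kept their call throughout. Counts of called Notch pathway genes moved by over 1.5 times with DESeq2 in some comparisons. At 2dpi they were 7 of 46 for ablation with rapamycin and 1 of 46 for rapamycin in ablated RPE. At 4dpi they were 12 of 43 for rapamycin in intact RPE and 19 of 43 for the interaction. They were 11 of 48 for the ablation effect at 4dpi against 2dpi and 14 of 48 for intact RPE at 9dpf against 7dpf. DESeq2 also called more of all genes, in the same order 17.6%, 3.12%, 6.05%, 8.95%, 6.77% and 10.4%. The shares of all genes with edgeR were 14.4%, 0.53%, 2.1%, 3.32%, 2.63% and 7%. With only the compared groups in the fit, the counts were 5 for rapamycin in intact RPE at 4dpi and 13 for 9dpf against 7dpf. With no filter on low counts, the count was 3 for 4dpi against 2dpi. Without replicate 2 of both ablated 4dpi groups, the counts were 6 for ablation with rapamycin, 1 for rapamycin in ablated RPE and 3 for the interaction. The cause was not tested.

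Leaving out 1 library gave 6 to 8 genes for ablation with DMSO and 1 to 3 with rapamycin at 2dpi, and 0 in every such fit for the 3 rapamycin comparisons there. At 4dpi it gave 10 to 16 for ablation with DMSO, 3 to 10 with rapamycin, 2 to 7 for rapamycin in ablated RPE, 0 to 5 in intact RPE and 5 to 14 for the interaction. It gave 1 to 7 for 4dpi against 2dpi and 0 to 8 for 9dpf against 7dpf. The value of *rbpja* for rapamycin in ablated RPE at 2dpi, -0.11 and not called, ranged from -0.33 to 0.10 over such fits, and was 0.05 without MTZ+ DMSO-treated replicate 3 and 0.10 without MTZ+ rapamycin-treated replicate 3. The replicate block was not fitted for 9dpf against 7dpf. It was followed in 74 gene and comparison pairs, which included pairs of *notch2* and *rbpja* that were not called. Of these, 9 lost their call, with the adjusted p given beside each result, and the other 65 were unchanged.

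With 3 libraries per group and a biological coefficient of variation of 0.635 at 2dpi and 0.619 at 4dpi, many counts of called genes rest on single libraries. Levels under the floor of 3 counts, 0.0742 to 0.135 CPM, were not told apart from 0.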
